A study of Mus musculus with 182 samples.

Results

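Germinal centre B cells that express IgM were compared with germinal centre B cells that have switched to another antibody class. Members were chosen by the values of the heavy chain constant genes in each single cell. For every cell the values of Ighm, Ighd, Ighg1, Ighg2b, Ighg2c, Ighg3, Igha and Ighe were summed, and the cell was kept where this sum reached 10. A cell with over 50% of the sum in Ighm was placed on the IgM side, and a cell with over 50% in any 1 IgG, IgA or IgE gene on the switched side. This gave 123 IgM cells and 41 switched cells, 164 of the 182 cells in all. Of the other cells, 13 had a sum under 10, and 5 were kept but had no gene that placed them on a side. The constant genes made the sides, so their values are given as a description, and the comparison rests on all other genes.

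All cells came from spleens of C57BL/6 mice on day 13 after an intraperitoneal injection of 100 μg NP(23)-KLH, a nitrophenyl hapten on the protein KLH, given with 50% alum and 1 μg of the adjuvant LPS. Both sides share this strain, immunisation and day. Cells bearing CD3, CD4, CD8, CD11c or surface IgD were removed on magnetic columns, and the rest were sorted as B220+, Fas high and GL7 high. The sample labels add NP binding to the sort, while the study's design text names NP only as a stain. No animal is named and each library is 1 cell caught on a Fluidigm C1 chip, where separation of the cells was judged by eye. All cells were therefore treated as 1 biological sample, so no test between the sides was possible and no p-value is given. The interval beside each share is an exact Clopper-Pearson 95% interval and takes in no error but that of counting cells.

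A B cell first makes IgM, whose heavy chain constant part is encoded by Ighm. Class switching joins the same variable region to a constant gene further along the locus by recombination through DNA breaks, and the intervening constant genes are lost from that chromosome. In germinal centres, IgM and switched cells divide side by side, mutate their variable genes and are selected for antigen binding with the help of T cells.

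The values were a normalized signal that is not on a log scale, and the sequencing depth of each cell is unknown. The columns fell into sets by their values: cells 1 to 96 shared 1 ladder of values by rank, called set 1 here, and cells 97 to 182 shared another, called set 2. Whether the sets match capture runs or animals is unknown, so each difference was also taken within both. Set 1 held 65 IgM and 24 switched cells, and set 2 held 58 IgM and 17 switched cells. The number of genes above their lowest listed value had medians of 2691 in IgM cells and 2572.5 in switched cells of set 1, and of 2143.5 in IgM cells and 2310 in switched cells of set 2. Genes that mark B cells were found in nearly every cell of both sides. Cd79b, a signalling chain of the B cell receptor, had a value of at least 1 in 122 of 123 IgM cells (99.2%, 95.6 to 100.0) and in 41 of 41 switched cells (100%, 91.4 to 100). Bcl6, the transcriptional repressor on which germinal centre B cells depend, had one in 68 IgM cells (55.3%, 46.1 to 64.3) and in 27 switched cells (65.9%, 49.4 to 79.9).

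The constant genes that separate the sides lie side by side on the minus strand of chromosome 12. The first 120 bases of their first constant exon are shown here, because telling the sides apart, and the IgG classes among the switched cells, rests on how far these sequences differ. They were read from GENCODE vM21 transcripts, on the mm10 build. Capitals mark the 39 positions at which the 4 IgG genes are not all the same, and the Ighm sequence is therefore printed without capitals.
Ighm, chr12:113422611-113422730: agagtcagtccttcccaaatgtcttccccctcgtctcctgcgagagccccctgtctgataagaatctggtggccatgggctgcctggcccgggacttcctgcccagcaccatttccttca
Ighg1, chr12:113330404-113330523: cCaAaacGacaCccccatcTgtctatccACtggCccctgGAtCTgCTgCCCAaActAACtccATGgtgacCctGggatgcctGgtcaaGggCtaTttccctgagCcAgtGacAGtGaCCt
Ighg2b, chr12:113307814-113307933: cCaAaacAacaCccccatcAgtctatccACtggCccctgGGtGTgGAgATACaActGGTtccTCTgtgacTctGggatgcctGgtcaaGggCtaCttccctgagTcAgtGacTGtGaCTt
Ighg2c, chr12:113288813-113288932: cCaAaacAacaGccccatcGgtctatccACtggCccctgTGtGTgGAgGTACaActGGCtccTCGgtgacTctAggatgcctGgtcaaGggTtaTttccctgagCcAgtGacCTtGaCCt
Ighg3, chr12:113361113-113361232: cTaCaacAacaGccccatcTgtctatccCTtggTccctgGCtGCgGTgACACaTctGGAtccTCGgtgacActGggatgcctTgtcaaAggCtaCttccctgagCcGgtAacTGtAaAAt
Position by position, Ighm equalled the IgG genes at 29.2% to 34.2% of these bases, and the IgG genes equalled each other at 75% to 89.2%. Reads were 75 bases long. Over the whole transcripts no 75-base window of Ighm or Ighg1 recurred in another constant gene. In Ighg2b 20 of 2603 windows recurred in Ighg2c or Ighg3 (0.768%), in Ighg2c 6 of 1251 in Ighg2b (0.480%), and in Ighg3 14 of 2438 in Ighg2b (0.574%). How reads that match several genes were counted is not given in the sources used here.

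IgM cells were 72.8% (65.4 to 79.3) of the 169 cells with a sum of at least 10, and switched cells 24.3% (18.0 to 31.4). All switched cells were placed by an IgG gene: 14 by Ighg1, 13 by Ighg2b, 9 by Ighg2c and 5 by Ighg3, and 0 by Igha or Ighe. Each of the 4 IgG genes was dominant in cells of both sets, with 8, 8, 6 and 2 cells of set 1 and 6, 5, 3 and 3 cells of set 2 in that order. In IgM cells Ighm ran from 11.1 to 3071 with a median of 307, and in switched cells from 0 to 491 with a median of 3.83. The summed values of the 8 constant genes had medians of 338 in IgM cells and 253 in switched cells. Whether the values are scaled to transcript length is not given in the sources used here, so the share of a constant gene in the sum may carry a part from gene length.

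The split was clean in most cells but not in all. In 97 of 123 IgM cells (78.9%, 70.6 to 85.7) Ighm made up over 90% of the sum, and in 23 of 41 switched cells (56.1%, 39.7 to 71.5) the dominant gene did. At least 1 switched gene had a value of 10 or more in 23 IgM cells (18.7%, 12.2 to 26.7), and Ighm had one in 12 switched cells (29.3%, 16.1 to 45.5). At the lower value of 1, a switched gene was found in 50 IgM cells (40.7%, 31.9 to 49.9) and Ighm in 29 switched cells (70.7%, 54.5 to 83.9). No doublet caller was run, and what part cells caught together or RNA carried between chambers have in these mixed cells was not tested. Ighd, the IgD gene that is spliced from the same transcript as Ighm, had a value of at least 1 in 37 IgM cells (30.1%, 22.1 to 39.0) and in 2 switched cells (4.88%, 0.596 to 16.5). Its highest value was 120.2 in IgM cells and 8.48 in switched cells, in cells from which those with IgD on their surface had been depleted.

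Some cells of both sides lay near the limit of 50%. With dominance over 80% in its place, 105 of the 123 IgM cells and 28 of the 41 switched cells were left. The IgM cell nearest the limit had 50.5% of its sum in Ighm. The nearest cell outside had 49.96% in Ighm and 50.03% in Ighg3, which made it a switched cell. The kept cell that came closest to a side without reaching one had 48.4% in Ighg3. The lowest sum kept was 11.3 and the highest sum left out was 9.72.

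**Figure D1:**
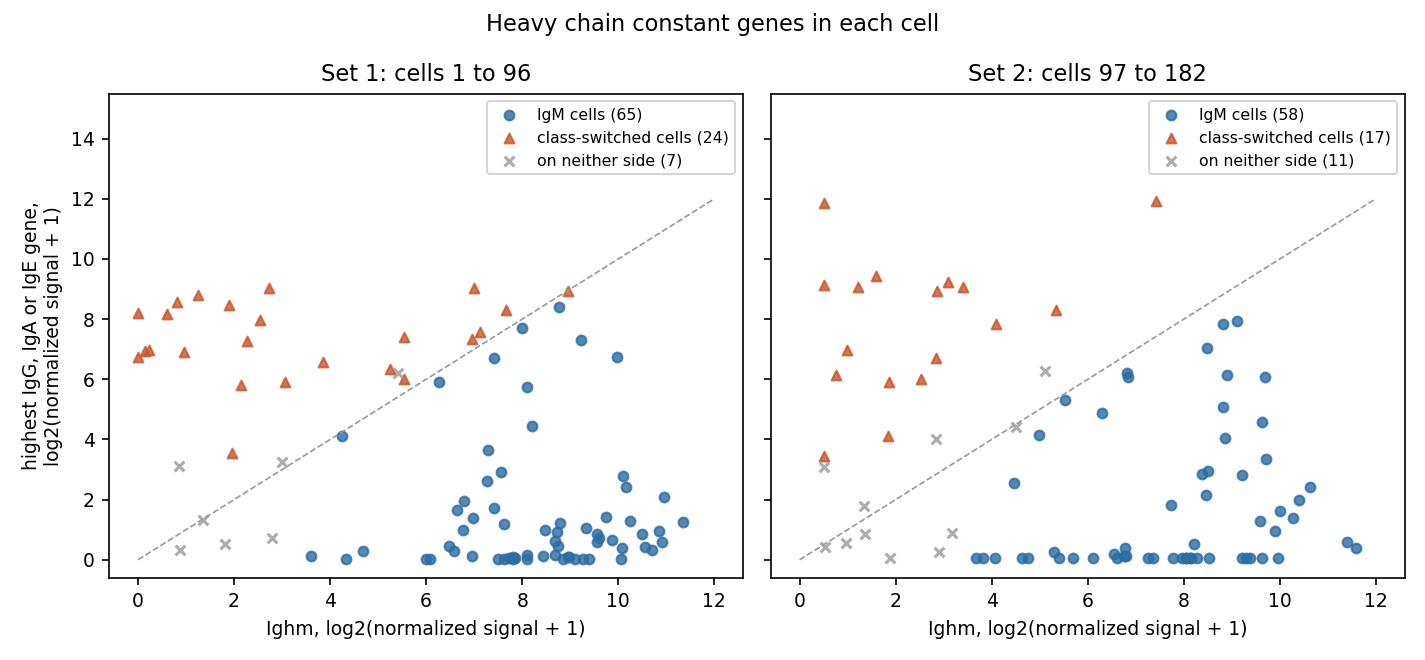
Each point is 1 cell, with Ighm on the x axis and the highest of the IgG, IgA and IgE genes on the y axis, both as log2(normalized signal + 1), in set 1 (left) and set 2 (right). The 65 and 58 IgM cells lie below the dashed line of equal values and the 24 and 17 switched cells above it, with some cells of both sides near it.

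A group of IgM cells stood apart from the other cells, as seen after the values were known. Ly6d and Sdc4, which had the largest differences over all cells among the named genes higher in IgM cells, reached 100 in 32 and 26 IgM cells, and 20 cells reached it for both. These 20 cells, 11 in set 1 and 9 in set 2, were drawn from the IgM side only. The 2 genes were picked as high on that side, and 0 switched cells reached 100 for either. That the group holds only IgM cells was therefore fixed by the choice. Fas, the receptor the cells were sorted on, had a value of at least 1 in 4 of the 20 cells, 54 of the other 103 IgM cells and 25 of the 41 switched cells. Bcl6, the master regulator of germinal centre B cells, was found in 4, 64 and 27 cells in the same order of groups. Mki67, a protein of dividing cells, had medians of 1.08, 34.1 and 44.6. Cd79a, a signalling chain of the B cell receptor, had medians of 1540 in the 20 cells, 70.1 in the other IgM cells and 129 in switched cells. Cd93, a surface protein of immature B cells and plasma cells, was found in 11, 11 and 2 cells, S1pr1 in 12, 8 and 1, and Ighd in 12, 25 and 2. The number of genes above the floor had medians of 2358.5, 2416 and 2436. The 20 cells bear the same labels as the others and were kept on the IgM side, and the main results are given with and without them.

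Outside the constant genes, few genes differed in the same way in both sets of cells. For each gene the difference is the mean of log2(value + 1) in IgM cells minus that in switched cells, so a positive difference means higher in IgM cells, and it understates the change of genes with low values. Of the 5453 genes with a value of at least 1 in at least 10% of the compared cells, the median difference was 0.00 over all cells, 0.03 in set 1 and 0.02 in set 2. The SD over cells had a median of 2.01 on each side, larger than most differences. A gene was counted as past the difference where it was at least 1 in the same direction in both sets. By that rule 35 genes (0.642%) were higher in IgM cells and 36 genes (0.66%) were higher in switched cells. Without the 20 IgM cells high for both Ly6d and Sdc4 the counts were 12 higher in IgM cells, 8 of them among the 35, and 23 higher in switched cells, 20 of them among the 36. Of the named genes described next, 4 of 12 higher in IgM cells and 11 of 12 higher in switched cells were still past it. Another 31 genes were at least 1 in opposite directions in the sets. The sets gave the same sign for 2923 genes (53.6%), with Pearson's r of 0.10 and Spearman's rho of 0.09 between their differences across genes, which are not independent replicates. Of the 71 genes past the difference, 70 were matched in GENCODE and 15 overlapped another gene of the table, among them Aup1 with Htra2 and Brd2 with H2-DMa on the opposite strand. How reads of such pairs were counted is not given in the sources used here.

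**Figure D2:**
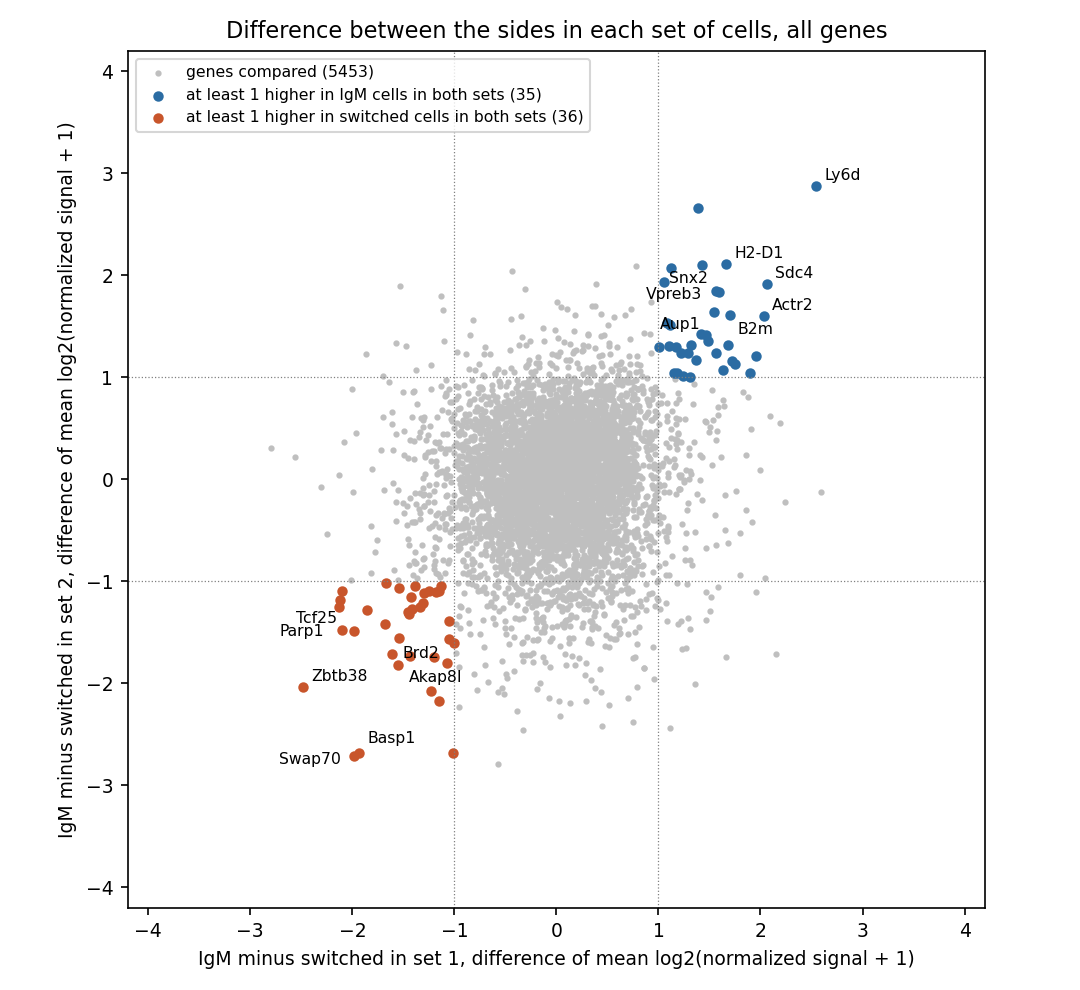
Each point is 1 of the 5453 genes compared, placed by its difference of mean log2(normalized signal + 1), IgM minus switched, in set 1 (x axis) and set 2 (y axis). Dotted lines mark a difference of 1 in either direction; the 35 genes at upper right are higher in IgM cells and the 36 at lower left higher in switched cells in both sets, with Ly6d at one end and Swap70, Basp1 and Zbtb38 at the other.

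The named genes of each side are the 12 for which the smaller of the set differences was largest, so their values describe what was selected on and are not tests. In every one of them the values of the sides overlapped across cells. The gene that stood highest in IgM cells was Ly6d, which encodes a GPI-anchored surface protein known from early B cell progenitors. Ly6d ran from 0 to 9011 with a median of 6.8 in IgM cells, and from 0 to 39.2 with a median of 1.3 in switched cells. A group of IgM cells had high values: Ly6d reached 100 in 32 of 123 IgM cells (26.0%, 18.5 to 34.7) and in 0 of 41 switched cells (0%, 0 to 8.60). The difference was 2.66 over all cells, 2.55 in set 1 and 2.88 in set 2, with means of 4.39 ± 4.47 in IgM cells and 1.73 ± 1.62 in switched cells (SD over cells). Sdc4, a heparan sulfate proteoglycan of the cell surface, was high largely in the same cells, since 20 of the 26 IgM cells that reached 100 for Sdc4 did so for Ly6d too. Sdc4 ran from 0 to 3466 with a median of 2.02 in IgM cells, and from 0 to 22.7 with a median of 0.865 in switched cells. It reached 100 in 26 of 123 IgM cells (21.1%, 14.3 to 29.4) and in 0 of 41 switched cells (0%, 0 to 8.60), and its difference was 1.99 over all cells, 2.06 in set 1 and 1.91 in set 2. Without those 20 cells, which these genes chose, the difference was 1.15 for Ly6d (0.98 in set 1, 1.45 in set 2) and 0.62 for Sdc4 (0.63 in set 1, 0.62 in set 2), and neither was past it.

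Both chains of the classical MHC class I molecule, which presents peptides to CD8+ T cells, were among the genes higher in IgM cells. H2-D1 encodes a heavy chain. H2-D1 ran from 0 to 5301 with a median of 186 in IgM cells, and from 0 to 2992 with a median of 39.1 in switched cells. B2m encodes the light chain that all class I molecules share. B2m ran from 0.221 to 8335 with a median of 117 in IgM cells, and from 2.19 to 2498 with a median of 46.0 in switched cells. Nearly every cell of both sides had B2m, so the sides differed in its level and not in how often it was found: it reached 100 in 68 of 123 IgM cells (55.3%, 46.1 to 64.3) and in 12 of 41 switched cells (29.3%, 16.1 to 45.5). The difference was 1.84 (1.66 in set 1, 2.11 in set 2) for H2-D1 and 1.67 (1.70 in set 1, 1.61 in set 2) for B2m. The same 20 cells had medians of 1940 for H2-D1 and 1900 for B2m, against 111 and 92.7 in the other IgM cells. Without them H2-D1 had 1.16 (0.89 in set 1, 1.53 in set 2) and was not past the difference, and B2m had 1.11 (1.05 in set 1, 1.14 in set 2) and was. H2-K1, the other classical heavy chain of this strain, named here after its values were seen, had 0.89 (0.35 in set 1, 1.70 in set 2) and was not past the difference. With the 20 cells left out, H2-K1 had 0.52 (-0.18 in set 1, 1.52 in set 2). Class I heavy chain genes are near copies of each other and the authors' counting may have divided reads between them. In a list of class I genes drawn up after the values were seen, 2 of 14 compared, H2-D1 and B2m, were past the difference. Over all genes compared the shares were 0.642% in IgM cells and 0.66% in switched cells. The list was made with these 2 genes known, so its count is no test. Its median was -0.14 over all cells (-0.01 in set 1, 0.18 in set 2).

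The rest of the 12 genes fall into several cell functions. Actr2 encodes a subunit of the Arp2/3 complex that branches actin filaments. Actr2 ran from 0 to 1205 with a median of 36.4 in IgM cells, and from 0 to 881 with a median of 3.96 in switched cells, with a difference of 1.83 (2.03 in set 1, 1.60 in set 2). Map3k1 encodes a kinase that starts mitogen-activated kinase cascades, and it was found in 68 of 123 IgM cells (55.3%, 46.1 to 64.3) and in 10 of 41 switched cells (24.4%, 12.4 to 40.3). No switched cell reached 100 for Map3k1, where the highest value was 75.7, against 1143 in IgM cells, and its difference was 1.95 (1.38 in set 1, 2.66 in set 2). Pdcd4, an inhibitor of translation, was found in 51 of 123 IgM cells (41.5%, 32.7 to 50.7) and in 4 of 41 switched cells (9.76%, 2.72 to 23.1). All 4 of those switched cells belonged to set 1, and the difference was 1.71 (1.42 in set 1, 2.10 in set 2). Both genes were found in most of the 20 cells high for Ly6d and Sdc4, Map3k1 in 20 and Pdcd4 in 17. Without these cells Map3k1 had 0.91 (0.09 in set 1, 1.89 in set 2) and Pdcd4 0.92 (0.61 in set 1, 1.34 in set 2), and neither was past the difference, while Actr2 was, with 1.31.

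Vpreb3, a B-lineage protein related to the surrogate light chain of the pre-B cell receptor, was found equally often on both sides. It had a value of at least 1 in 75 of 123 IgM cells (61.0%, 51.8 to 69.6) and in 25 of 41 switched cells (61.0%, 44.5 to 75.8). It reached 100 in 38 of 123 IgM cells (30.9%, 22.9 to 39.9) and in 5 of 41 switched cells (12.2%, 4.08 to 26.2), with a difference of 1.67 (1.57 in set 1, 1.85 in set 2). Chchd10, which encodes a mitochondrial protein and lies 5309 bases from Vpreb3 in the GENCODE annotation, was also past the difference, with 1.28 (1.08 in set 1, 1.53 in set 2), and is named after its values were seen. The sorting nexin gene Snx2 had a difference of 1.66, Aup1, which acts in degradation from the endoplasmic reticulum, 1.55, Ftl1, the ferritin light chain, 1.45, and Canx, the lectin chaperone calnexin, 1.38. Ftl1 has close pseudogene copies, so its values are uncertain. Without the 20 cells high for Ly6d and Sdc4, Aup1 (1.53) and Canx (1.23) were past the difference, and Vpreb3 (0.87), Chchd10 (0.84), Snx2 (1.16, but 0.99 in set 1) and Ftl1 (0.66) were not.

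Of the 23 other genes higher in IgM cells, Cd24a, Cd53, Cd48, Cbx7 and Klf13 are named after their values were seen, and stand for no group of genes. Cd24a, a surface glycoprotein, had medians of 146 in IgM cells and 44.1 in switched cells and a difference of 1.45 (1.49 in set 1, 1.36 in set 2). The surface proteins Cd53, a tetraspanin, and Cd48, a ligand of the SLAM family, had 1.26 and 1.12. Trp53, the tumour suppressor p53, had a value of at least 1 in 80 of 123 IgM cells (65.0%, 55.9 to 73.4) and in 17 of 41 switched cells (41.5%, 26.3 to 57.9) and a difference of 1.44 (1.06 in set 1, 1.94 in set 2). The Polycomb gene Cbx7 was found in 36.6% of IgM cells and 9.76% of switched cells, and the transcription factor Klf13 had a difference of 1.65. Without the 20 cells high for Ly6d and Sdc4, Cbx7 had 1.29 and was past the difference, while Cd24a (1.01), Trp53 (1.11), Cd48 (0.94), Klf13 (0.81) and Cd53 (0.48) were not.

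**Figure D3:**
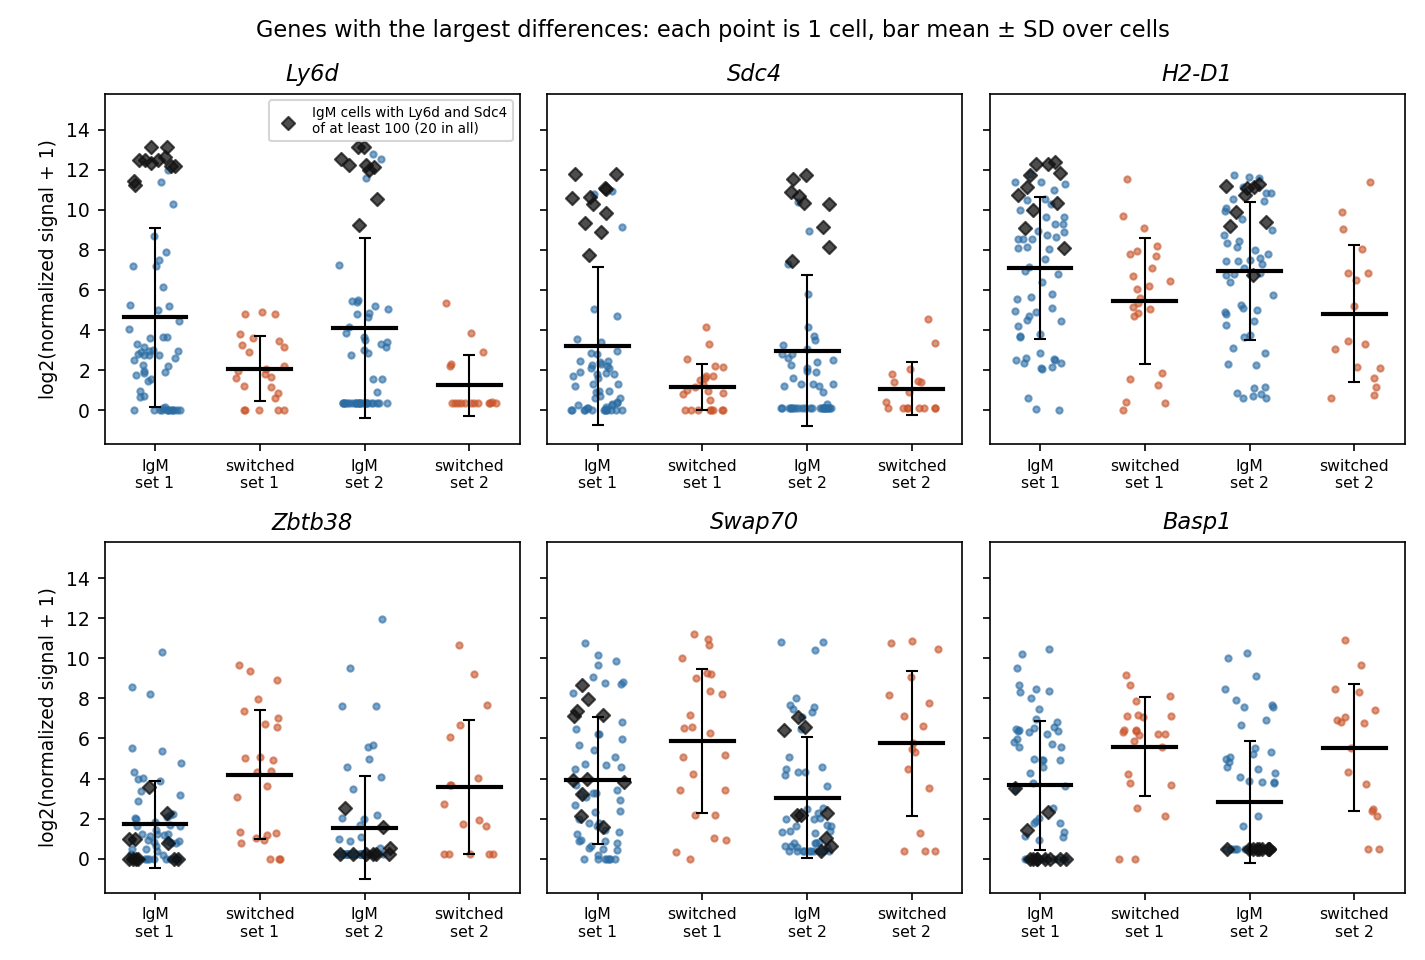
Values of 6 genes in single cells as log2(normalized signal + 1), with IgM cells left of switched cells in each set; the thick bar is the mean and the whiskers the SD over cells. Black diamonds are the 20 IgM cells with at least 100 for both Ly6d and Sdc4. Ly6d, Sdc4 and H2-D1 (top) are higher in IgM cells and Zbtb38, Swap70 and Basp1 (bottom) higher in switched cells in both sets, and the sides overlap for every gene.

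On the switched side, Swap70 had the largest difference over all cells. It encodes an actin-binding exchange factor of B cells, first isolated as a protein linked to switch recombination. Swap70 ran from 0 to 1809 with a median of 4.02 in IgM cells, and from 0 to 2365 with a median of 75.4 in switched cells. It had a value of at least 1 in 86 of 123 IgM cells (69.9%, 61.0 to 77.9) and in 35 of 41 switched cells (85.4%, 70.8 to 94.4), and reached 100 in 25 of 123 IgM cells (20.3%, 13.6 to 28.5) and in 17 of 41 switched cells (41.5%, 26.3 to 57.9). The difference was -2.33 over all cells, -1.98 in set 1 and -2.71 in set 2, with means of 3.50 ± 3.12 in IgM cells and 5.84 ± 3.56 in switched cells (SD over cells). Basp1, a lipid-anchored signalling protein of the membrane, was close to it. Basp1 ran from 0 to 1415 with a median of 3.31 in IgM cells, and from 0 to 1925 with a median of 77.8 in switched cells, and its difference was -2.29 (-1.94 in set 1, -2.69 in set 2). Basp1 was found in 71 of 123 IgM cells (57.7%, 48.5 to 66.6) and in 37 of 41 switched cells (90.2%, 76.9 to 97.3). Of the 20 cells high for Ly6d and Sdc4, 3 had Basp1, and without them its difference was -1.77 (-1.32 in set 1, -2.25 in set 2) and that of Swap70 -2.48 (-2.24 in set 1, -2.74 in set 2), both past it.

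Zbtb38, a zinc finger protein that binds methylated DNA, differed most, among these 24 genes, in how often it was found. Zbtb38 ran from 0 to 4045 with a median of 0.458 in IgM cells, and from 0 to 1618 with a median of 11.6 in switched cells. It had a value of at least 1 in 48 of 123 IgM cells (39.0%, 30.4 to 48.2) and in 31 of 41 switched cells (75.6%, 59.7 to 87.6), with a difference of -2.31 (-2.48 in set 1, -2.03 in set 2). Brd2, a bromodomain protein that binds acetylated histones, had medians of 11.1 in IgM cells and 68.1 in switched cells and a difference of -1.64 (-1.61 in set 1, -1.71 in set 2). Among genes outside the 12, named after their values were seen, Kmt2a, a histone methyltransferase, had -1.64 and Phf19, a Polycomb partner, -1.72; they stand for no group of genes, and Kmt2a was not past the difference without the 20 cells high for Ly6d and Sdc4 (-1.21, with -0.88 in set 2).

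Mef2b, a transcription factor that drives Bcl6 in germinal centre B cells, was the 1 germinal centre identity gene past the difference. Mef2b ran from 0 to 3358 with a median of 25.5 in IgM cells, and from 0 to 5345 with a median of 73.8 in switched cells. It was found in 88 of 123 IgM cells (71.5%, 62.7 to 79.3) and in 37 of 41 switched cells (90.2%, 76.9 to 97.3), and its difference was -1.62 (-1.15 in set 1, -2.17 in set 2). Nuggc, a GTPase of germinal centre B cells named here after its values were seen, was found in 75 of 123 IgM cells (61.0%, 51.8 to 69.6) and in 34 of 41 switched cells (82.9%, 67.9 to 92.8) and had -1.39 (-1.42 in set 1, -1.27 in set 2). Both moved with the 20 cells high for Ly6d and Sdc4: without them neither was past the difference, with -0.99 (-0.48 in set 1, -1.58 in set 2) for Mef2b and -0.88 (-0.86 in set 1, -0.83 in set 2) for Nuggc.

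Beside Parp1, a gene of switch recombination, 6 more named genes were higher in switched cells. Laptm5, a lysosomal membrane protein that lowers antigen receptor levels, had medians of 301 in IgM cells and 638 in switched cells and a difference of -1.42 (-1.44 in set 1, -1.32 in set 2). The other 5 were Tcf25 (-1.81), which acts in quality control at the ribosome, Akap8l (-1.67), a nuclear anchoring protein, Lpin2 (-1.59), a phosphatidate phosphatase, Unc119 (-1.58), a carrier of lipid-modified proteins, and Rhno1 (-1.42), which acts in the response to stalled replication. Unc119 was found in few cells, 13 of 123 IgM cells (10.6%, 5.75 to 17.4) and in 13 of 41 switched cells (31.7%, 18.1 to 48.1).

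The genes that carry out class switching gave 1 gene past the difference. Of 22 compared out of 30 listed, 0 were past the difference in IgM cells and 1 in switched cells, and the median difference was 0.02 over all cells (0.01 in set 1, 0.02 in set 2), against 0.00 over all genes. Over all genes compared, the same rule took in 0.642% in IgM cells and 0.66% in switched cells, and the counts of this and the following lists stand beside those shares. The 1 gene was Parp1, which encodes an enzyme that senses DNA strand breaks. Parp1 ran from 0 to 1588 with a median of 2.1 in IgM cells, and from 0 to 2918 with a median of 57.8 in switched cells. It was found in 73 of 123 IgM cells (59.3%, 50.1 to 68.1) and in 32 of 41 switched cells (78.0%, 62.4 to 89.4), and its difference was -1.86 (-2.10 in set 1, -1.47 in set 2).

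The repair and targeting genes of the same list went both ways. Xrcc6, a subunit of the Ku end-binding complex, had 0.79 (1.30 in set 1, 0.08 in set 2), while Xrcc5, its partner, had -0.08 (0.11 in set 1, -0.33 in set 2). Atm, a kinase activated by breaks, had 0.63 (0.35 in set 1, 1.05 in set 2), and Supt5, a transcription elongation factor, had -0.65 (-0.93 in set 1, -0.20 in set 2). The mismatch repair gene Msh6 had -0.19. The 8 genes that were found in too few cells to be compared were Ung, Pms2, Exo1, Trp53bp1, Mad2l2, Lig4, Xrcc4 and Nhej1.

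Among receptors and signalling genes that direct switching, 0 of 19 compared out of 27 listed were past the difference in either direction. Over all genes compared the shares were 0.642% in IgM cells and 0.66% in switched cells. Their median difference was 0.17 over all cells (0.13 in set 1, 0.20 in set 2). With no filter the median over all 27 genes was 0.07, and without the 20 cells high for Ly6d and Sdc4 it was 0.05. Irf4, a transcription factor of switching and plasma cell fate, was found in 19 of 123 IgM cells (15.4%, 9.56 to 23.1) and in 1 of 41 switched cells (2.44%, 0.062 to 12.9), with a difference of 0.54 (0.55 in set 1, 0.52 in set 2). Nfkb1, a subunit of NF-κB, was found in 27 of 123 IgM cells (22.0%, 15.0 to 30.3) and in 3 of 41 switched cells (7.32%, 1.54 to 19.9), with 0.66 (0.73 in set 1, 0.60 in set 2). Irf4 and Nfkb1 were each found in under 10% of switched cells and passed the filter through IgM cells. Their shares are therefore a description and no test of the sides. The kinase gene Jak1 had 0.81 (0.60 in set 1, 1.03 in set 2) and Stat6, which acts below the interleukin-4 receptor, 0.66 (0.80 in set 1, 0.52 in set 2). The receptor genes Cd40, Il4ra and Il21r changed sign between the sets, with differences over all cells of 0.18, -0.42 and 0.09.

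Other antibody transcripts, which the rule did not use, had intervals that overlapped between the sides. Any of 43 heavy chain variable genes had a value of at least 1 in 69 of 123 IgM cells (56.1%, 46.9 to 65.0) and in 23 of 41 switched cells (56.1%, 39.7 to 71.5). Ighv1-72, the variable gene typical of the NP response in this strain, was found in 26 IgM cells (21.1%, 14.3 to 29.4) and in 11 switched cells (26.8%, 14.2 to 42.9). Among cells with 1 dominant variable gene it was that gene in 24 of 54 IgM cells (44.4%, 30.9 to 58.6) and in 11 of 19 switched cells (57.9%, 33.5 to 79.7). Variable genes are near copies of each other, so their values are uncertain. Igj, the joining chain of IgM and IgA polymers, was found in 63 IgM cells (51.2%, 42.0 to 60.3) and in 28 switched cells (68.3%, 51.9 to 81.9), and its difference was -0.75 (0.10 in set 1, -1.82 in set 2). The light chain constant genes Igkc and Iglc1 to Iglc3 were on the antibody assembly list but were not compared. Of the 15 genes of that list, 7 were in the table.

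The lists of germinal centre programs are given beside the 0.642% of all genes compared that were past the difference in IgM cells and 0.66% in switched cells. Of the germinal centre identity genes, 1 of 21 was past the difference, with a median of -0.11 over all cells (-0.13 in set 1, -0.08 in set 2). The dark zone list, genes of the compartment where cells divide and mutate, had 0 of 14 past it and a median of -0.02 over all cells (-0.07 in set 1, -0.10 in set 2). The light zone list, genes of the compartment where cells are selected, had 0 of 15 and 0.14 over all cells (0.06 in set 1, 0.01 in set 2). For genes of B cell receptor signalling the counts were 0 of 25, with a median of 0.01 over all cells (0.15 in set 1, -0.16 in set 2). The plasma cell list had 0 of 12 and 0.08 over all cells (0.36 in set 1, -0.12 in set 2). Fas, the death receptor used in the sort, was found in 58 of 123 IgM cells (47.2%, 38.1 to 56.4) and in 25 of 41 switched cells (61.0%, 44.5 to 75.8), with a difference of -1.35 (-0.77 in set 1, -2.07 in set 2). Without the 20 cells high for Ly6d and Sdc4, Fas had -0.99 (-0.38 in set 1, -1.73 in set 2).

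Of the 22 memory and exit genes, 9 were found in enough cells to be compared and 0 were past the difference. Several of the 9 were found mostly in IgM cells and passed the filter through them, so their median, 0.48 over all cells (0.49 in set 1, 0.39 in set 2), does not stand for the list: with no filter the median over all 22 genes was 0.05, and over the 4 genes found in at least 25% of cells it was -0.32. Without the 20 cells high for Ly6d and Sdc4 it was 0.07 over 8 genes. Bach2, a repressor that favours memory fate, had -0.81 (-1.26 in set 1, -0.22 in set 2), and Fcer2a, the low-affinity IgE receptor, had -0.88 (-0.97 in set 1, -0.64 in set 2). Vim, a filament protein, had 0.90 (1.18 in set 1, 0.54 in set 2), the homing regulator Klf2 0.62 and its target S1pr1, an exit receptor, 0.62. With the 20 cells left out, Bach2 had -0.75, Fcer2a -0.65, Vim 0.64, Klf2 0.37 and S1pr1 0.14. Myc, which marks cells picked for re-entry into division, was found in 26 of 123 IgM cells (21.1%, 14.3 to 29.4) and in 3 of 41 switched cells (7.32%, 1.54 to 19.9). Its highest value was 11301 in IgM cells and 4.36 in switched cells, each the value of 1 cell and taken over unequal numbers of cells. Myc had a difference of 0.71 (0.61 in set 1, 0.80 in set 2) and was not past it. The Myc and selection list had 0 of 14 past the difference and a median of 0.14 over all cells (0.45 in set 1, 0.10 in set 2).

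Division and metabolism lists are set beside the same shares of all genes compared, 0.642% in IgM cells and 0.66% in switched cells. The S phase list had 0 of 33 and a median of 0.00 over all cells (0.18 in set 1, -0.09 in set 2). The G2 and M phase list had 0 of 42 and a median of -0.23 over all cells (-0.38 in set 1, -0.07 in set 2), with 5 genes positive and 15 negative in both sets, and the median was -0.03 without the 20 cells high for Ly6d and Sdc4. Birc5, the mitotic protein survivin, had -1.08 (-1.16 in set 1, -0.92 in set 2), and Smc4, a condensin subunit, -0.64 (-0.62 in set 1, -0.67 in set 2). With those 20 cells left out, Birc5 had -0.70 (-0.69 in set 1, -0.66 in set 2) and Smc4 -0.22 (-0.10 in set 1, -0.36 in set 2). Respiratory chain genes, 0 of 35 past the difference, went opposite ways in the sets, with medians of 0.55 in set 1 and -0.55 in set 2. In glycolysis, 1 of 10 was past it, with a list median of 0.01 over all cells (-0.09 in set 1, 0.06 in set 2). This was Aldoa, aldolase A, higher in IgM cells with 1.39 (1.57 in set 1, 1.24 in set 2). Aldoa has pseudogene copies, so its values are uncertain, and without the 20 cells it had 1.13 (1.52 in set 1, 0.74 in set 2) and was not past the difference.

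Of 22 endoplasmic reticulum genes, 1 was past the difference in each direction, with a list median of -0.04 over all cells (-0.20 in set 1, 0.17 in set 2). Both encode lectin chaperones that fold glycoproteins. Canx, calnexin, was higher in IgM cells. Canx ran from 0 to 1655 with a median of 6.68 in IgM cells, and from 0 to 514 with a median of 1.45 in switched cells. Calr, calreticulin, was higher in switched cells. Calr ran from 0 to 1242 with a median of 11.6 in IgM cells, and from 0 to 2055 with a median of 80.4 in switched cells, with a difference of -1.68 (-2.10 in set 1, -1.10 in set 2). Without the 20 cells high for Ly6d and Sdc4, Canx had 1.23 and was past the difference, while Calr had -1.28 (-1.62 in set 1, -0.79 in set 2) and was not.

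The other lists gave the following counts, beside 0.642% of all genes compared in IgM cells and 0.66% in switched cells. In the list of cell death genes 1 of 12 was past the difference, Trp53, with a list median of 0.03 over all cells (0.10 in set 1, 0.04 in set 2). Antigen presentation genes had 2 of 18, H2-D1 and B2m, with a median of -0.01 over all cells (0.19 in set 1, 0.08 in set 2). Within a list of class II genes alone, drawn up after the values were seen, 0 of 10 were past it and the median was -0.58 over all cells (-0.04 in set 1, -1.05 in set 2). Cd74, the invariant chain of class II, had -0.70 (-0.20 in set 1, -1.31 in set 2), and H2-Ab1, a class II chain, -0.98 (-0.46 in set 1, -1.61 in set 2). With the 20 cells high for Ly6d and Sdc4 left out, Cd74 had -1.04 (-0.52 in set 1, -1.66 in set 2) and H2-Ab1 -0.59 (-0.08 in set 1, -1.21 in set 2). Antibody assembly genes had 1 of 6, Vpreb3, with a median of 0.27 over all cells (0.55 in set 1, -0.32 in set 2). The interferon response had 0 of 8 and 0.00 over all cells (0.06 in set 1, -0.09 in set 2), and migration 0 of 19 and -0.11 over all cells (0.03 in set 1, 0.16 in set 2). Of 67 cytosolic ribosomal protein genes, a list drawn up after the values were seen, 0 were past it in IgM cells and 3 in switched cells, among them Rplp1 and Rpl8, with a median of -0.03 over all cells (0.08 in set 1, -0.28 in set 2). Genes of this family have many pseudogene copies, so their values are uncertain. Without the 20 cells high for Ly6d and Sdc4, Rplp1 had -0.95 and Rpl8 -0.79, and neither was past the difference. Leaving aside the ribosomal, class I and class II lists drawn up after the values were seen, 6 distinct genes of the lists were past the difference in IgM cells and 3 in switched cells out of 329 compared, and 2 and 1 without the 20 cells high for Ly6d and Sdc4.

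**Figure D4:**
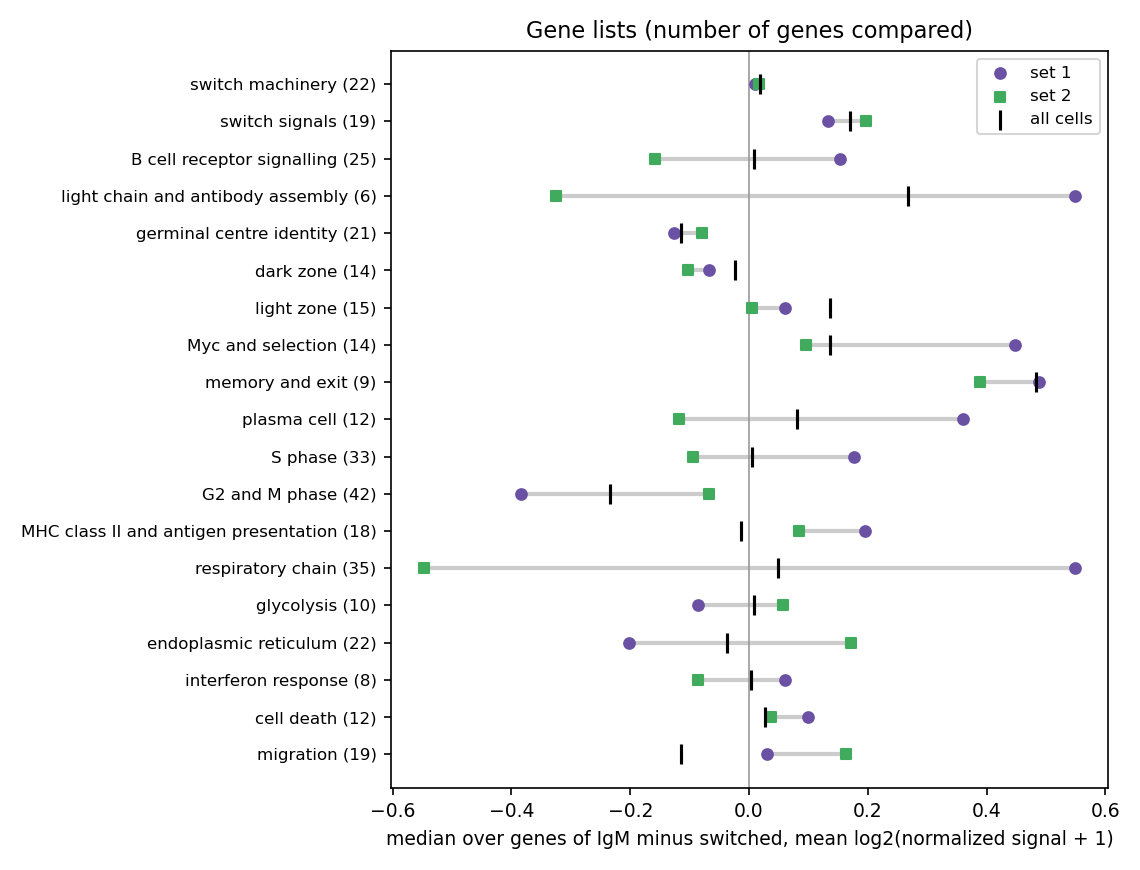
Median over the genes of each list of the difference IgM minus switched in mean log2(normalized signal + 1), in set 1 (circles), set 2 (squares) and all cells (ticks), with the number of genes compared in brackets. Medians of switch machinery stay near 0, memory and exit lies above 0 in both sets but at 0.05 with no filter on low genes and at -0.32 over the genes found in at least 25% of cells, and respiratory chain and antibody assembly lists lie on opposite sides of 0 in the sets.

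The switched side pools 4 IgG classes, and the named genes were next taken in each. All 12 genes higher in IgM cells had a higher mean in the 123 Ighm cells than in the cells of each IgG gene. Of the 12 higher in switched cells, Akap8l in Ighg1 cells and Rhno1 in Ighg2b cells were not above the Ighm cells, and the others were above them in all 4 classes. The pooled difference chose these genes, so much of this direction was fixed by the choice. The levels among the classes varied. Swap70 had a mean log2(value + 1) of 3.50 ± 3.12 in the Ighm cells, against 7.05 ± 3.15 in Ighg1 cells, 4.72 ± 3.82 in Ighg2b cells, 4.17 ± 3.30 in Ighg2c cells and 8.35 ± 2.39 in Ighg3 cells (SD over 123, 14, 13, 9 and 5 cells). Basp1 had 3.27 ± 3.15 in Ighm cells and its highest mean, 8.58 ± 1.04, in the 5 Ighg3 cells. Brd2 likewise had 3.87 ± 2.94 in Ighm cells and 8.13 ± 0.72 in Ighg3 cells. Pdcd4 had a value of at least 1 in 51 Ighm cells, in 2 Ighg1 cells and 2 Ighg2b cells, and in 0 of the 9 Ighg2c and 0 of the 5 Ighg3 cells.

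**Figure D5:**
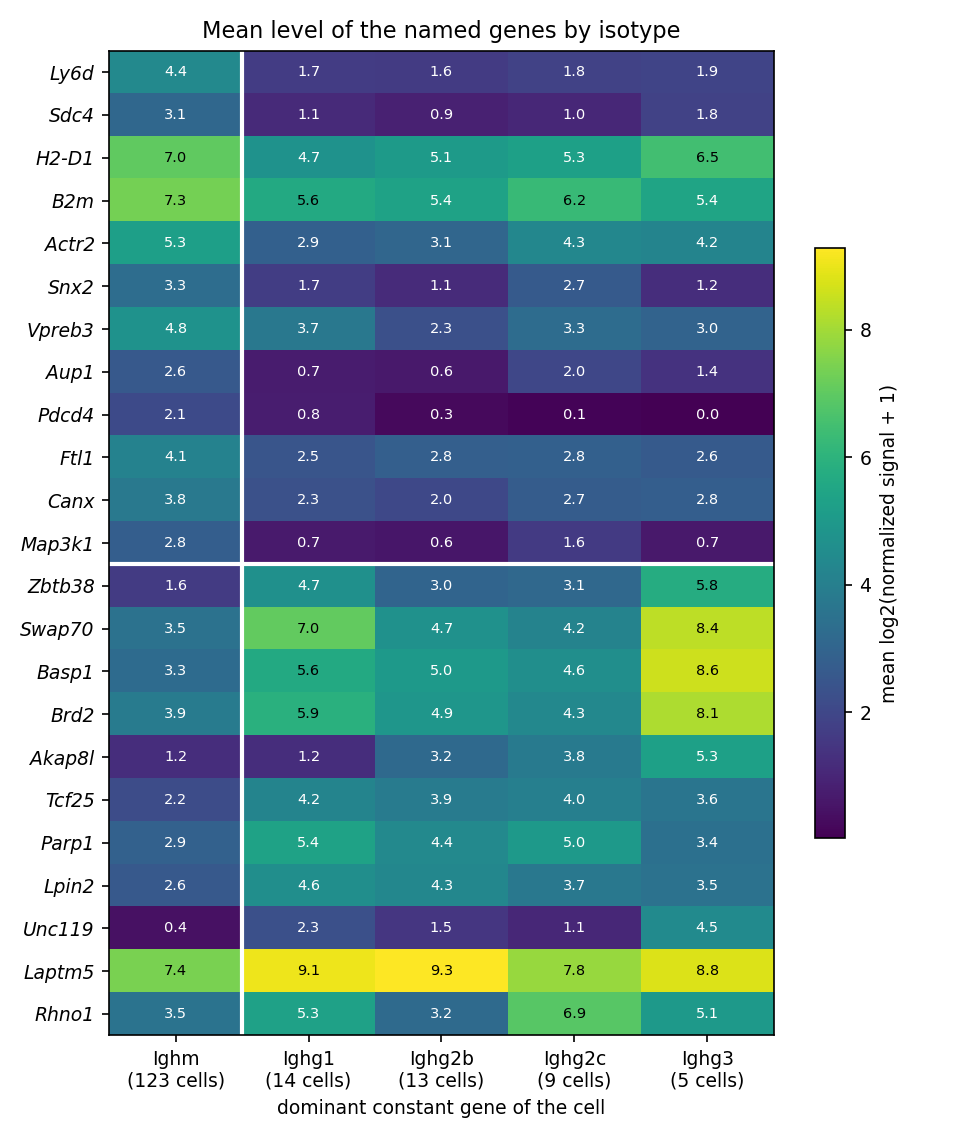
Mean log2(normalized signal + 1) of 12 named genes higher in IgM cells (rows above the white line) and 11 higher in switched cells (rows under it) in cells grouped by dominant constant gene, with Ighm left of the IgG genes and the number of cells under each name. For Swap70 the mean is 3.50 in Ighm cells and 8.35 in Ighg3 cells.

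Signs of other cells and of library make-up were set beside these differences. At least 2 myeloid markers were found in 4 of 123 IgM cells and 4 of 41 switched cells, at least 2 T cell markers in 1 and 1, erythroid in 1 and 1, stromal in 3 and 3, and NK cell markers in 0 and 0. The switched side has fewer cells, so an equal count is a larger share of it. The stromal counts include Pecam1 and Cr1l, which were found in 14.6% to 19.5% of the cells of each side. On each side 3 of the 7 stromal markers in the table were found in any cell. Every cell counted as stromal therefore had Pecam1 or Cr1l, and the count is no clear sign of stromal cells. The summed myeloid marker value had a median of 0.188 on both sides and a highest value of 1530.2 in IgM cells and 71.8 in switched cells. In the same order the highest sums were 967.8 and 193.5 for T cell and 425.4 and 166.8 for erythroid markers. They were 3.40 and 0.924 for NK cell markers. Stromal markers, again with Pecam1 and Cr1l, went the other way, with 1315.8 and 11355.9. Of the 11 myeloid markers in the table, 10 were found in any of the 123 IgM cells and 6 in any of the 41 switched cells. Without the 6 IgM and 5 switched cells that had at least 2 markers of another type, not counting Lck, Pecam1 and Cr1l, which were found in 14.6% to 56.1% of the cells of each side, 32 genes were past the difference in IgM cells and 43 in switched cells. Actb, cytoskeletal actin, had a median of 8347 in IgM cells and 5056 in switched cells. Among IgM cells its median was 25300 in the 20 cells high for Ly6d and Sdc4 and 6840 in the other IgM cells. One switched cell, cell 122, had the highest summed value of all, 3443760, and without it the counts were 31 and 37. The part of these features in the differences was not tested.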

How the data were processed

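The data were 1 RNA sequencing library for each of 182 single cells, made with SMARTer and Nextera XT chemistry and read at 75 bases. The deposited table gives a normalized signal per gene and cell, made by the authors; per the submitters' processing notes, the tools were TopHat2 2.0, Cuffdiff and Cufflinks 2.2 and the build was mm10. The sources used here do not give the starting unit, annotation or normalization, and read counts were not used here, so depth is unknown. The values are not whole numbers and share a ladder by rank within each set of cells, which ties levels to ranks within a cell, so no count model was used.

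The table has 17035 rows for 17034 symbols. Sides, differences of mean log2(value + 1) and shares of cells with a value of at least 1 were computed with Python 3.11.15, pandas 2.3.3, numpy 2.4.6 and scipy 1.17.1. A known shift put into the log2 values of randomly drawn genes in IgM cells was recovered. This checks the arithmetic of the differences only, and not how often genes are past the difference by chance. Genes were compared where at least 10% of the 164 cells had a value of at least 1. The rule for naming took the 12 genes on each side with the largest smaller set difference and all members of the switch machinery, switch signals and antibody assembly lists. It also took the 4 most highly expressed members of other lists. Of the list members so taken, the text gives only a part. Genes outside this rule were chosen after their values were seen, also H2-DMa, Htra2, Birc5, Klf2 and S1pr1. Some genes of these lists are not reported here. The members and lists were chosen with earlier results of these data known. Alternatives changed the pseudocount, detection value, filter, dominance, sum, difference and the cells included. Gene positions are from RefSeq and GENCODE vM21 on mm10.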

Additional observations from a re-analysis of the deposited data

How the results depend on the processing

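Of the 24 named genes, none reversed direction under the 18 alternatives, and B2m, Actr2, Swap70, Basp1, Zbtb38 and Parp1 stayed past the difference under each of them. Several alternatives could not have changed this. The genes were chosen on their set differences, which fixed the outcome within each set and for the mean of the sets. A change of only the detection value or the filter on low genes leaves the difference of a gene as it was. The counts of genes past the difference moved more, given here as higher in IgM cells and then higher in switched cells, against 35 and 36. With a pseudocount of 0.1 they were 89 and 106, and with 10 they were 9 and 8. A limit of 2 left 1 and 1, and a limit of 0.5 gave 237 and 226. Taken over all cells in place of both sets, they were 69 and 109. The count higher in switched cells became 69 with dominance over 80% (an IgM share of 62.1%), 58 with a sum of at least 100 and 64 without cells of 2 isotypes, which left 106 IgM and 28 switched cells and kept 22 of the 35 and 27 of the 36 genes. A sum of at least 1 gave 22 higher in IgM cells. Without the 20 IgM cells high for Ly6d and Sdc4, an alternative chosen after seeing the data, the counts were 12 and 23. Members of the lists, other than the 3 lists drawn up after the values were seen, that were higher in switched cells, 3 in the report, numbered 6 with a pseudocount of 0.1, 1 with 10, 6 with dominance over 80%, 5 with a sum of at least 100, 7 over all cells and 1 without the 20 cells, and those higher in IgM cells, 6 in the report, numbered 3 with a sum of at least 1 and 2 without the 20 cells. The median of the memory and exit list, 0.48 in the report, was -0.32 with detection at a value of 5 and with detection in 25% of cells, and 0.05 with no filter. With no filter the medians of the light zone and of the Myc and selection lists, 0.14 each in the report, were -0.03 and -0.01. At a value of 5, Igj was found in 35.0% of IgM cells and 43.9% of switched cells. Apart from the settings' own changes in threshold and cells, the cause was not tested. Leaving out cell 122, leaving out cells with markers of other types and centring each cell on its mean were chosen after seeing the data and kept both counts within 1.5 times. No paired analysis was possible because each library is 1 cell and no number pairs cells across the sides. The small number of switched cells and the unknown depth limit all of these values, and cells of 1 sample are not replicates.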

Other observations

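The 5 cells that were kept but lay on neither side mixed constant genes in different ways. In cell 168 Ighd had the highest value, 31.3, beside 15.1 for Ighe and 6.14 for Ighm. Cell 160 had 90.7 for Ighd, 75.6 for Ighg3 and 33.6 for Ighm, and cell 141 had 21.8 for Ighm and 20.1 for Ighg3. In cell 50 the values were 73.3 for Ighg3, 41.7 for Ighm and 36.2 for Ighg2b, and in cell 61 they were 8.49 for Ighg1 and 7.04 for Ighm. All are normalized signals of single cells with no replicate.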
